A study of Mus musculus with 6 samples.

Results

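A set of 10 genes of centriole multiplication and multiciliated cell fate were followed in fetal mouse lung lacking Scap in its epithelium, namely Deup1, Ccno, Foxj1, Rfx2, Rfx3, Plk4, Sass6, Stil, Cep152 and Cep63. They were picked because Deup1 and Ccno read higher in the Scap-deleted lungs. They are 10 of 18193 genes with a probe set, and all their probe sets, 18 of 45037, were taken, each carrying only that symbol in the platform annotation. The samples were whole lungs at E18.5, close to birth, from animals of mixed FVB/N and B6 strain, with 3 Scap-deleted and 3 control arrays. In the Scap-deleted group the gene Scap, which escorts the SREBP transcription factors of lipid synthesis out of the endoplasmic reticulum, had been removed from respiratory epithelial cells. The promoter that drove the deletion and the alleles carried by the controls are not given in the sources used here. Nothing in the labels says that arrays of a group came from separate animals, so p-values and errors cover no more than the spread among these 6 samples, whose source may be technical.

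A multiciliated airway cell needs a basal body under every motile cilium, far more centrioles than the pair a dividing cell owns. Notch signalling holds back this fate. Where it is released, the regulators Gmnc and Mcidas act with E2F factors to switch on Myb, Ccno, Deup1, Foxj1 and Rfx genes. New centrioles then form around the old ones, organised by Cep63 and Cep152, and around deuterosomes, structures of differentiating multiciliated cells built on Deup1, a relative of Cep63. On either platform Plk4, Stil and Sass6 start the procentriole, as they also do once per cycle in dividing cells. Foxj1 and the Rfx factors turn on the genes of the ciliary shaft.

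RFX proteins bind an element called the X-box, of which the core letters GTTGCC were searched on both strands of RefSeq promoter windows (GRCm38.p6, 250 bases before to 50 after a gene start). Windows were found for 9 of the 10 genes, and Foxj1, which had none, was not searched. The core letters stood in windows of 4 genes, Deup1, Ccno, Rfx2 and Rfx3, and not in those of the other 5. Of 32851 windows of the same length 12.5% held them. The windows are shown because both genes that set the choice of the list, and both Rfx genes, carry the letters. They lie at chr9:15627797-15628096 (minus strand, Deup1), chr13:112987552-112987851 (plus strand, Ccno), chr17:56830959-56831258 (minus strand, Rfx2) and chr19:28011117-28011416 (minus strand, Rfx3), and capitals mark the core on either strand.
Deup1: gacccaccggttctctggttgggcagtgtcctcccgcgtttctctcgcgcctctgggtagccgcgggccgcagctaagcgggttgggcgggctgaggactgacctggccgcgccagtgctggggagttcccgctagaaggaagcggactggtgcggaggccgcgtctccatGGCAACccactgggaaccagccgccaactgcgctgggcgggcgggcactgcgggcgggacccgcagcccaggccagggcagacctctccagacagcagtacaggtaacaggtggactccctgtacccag
Ccno: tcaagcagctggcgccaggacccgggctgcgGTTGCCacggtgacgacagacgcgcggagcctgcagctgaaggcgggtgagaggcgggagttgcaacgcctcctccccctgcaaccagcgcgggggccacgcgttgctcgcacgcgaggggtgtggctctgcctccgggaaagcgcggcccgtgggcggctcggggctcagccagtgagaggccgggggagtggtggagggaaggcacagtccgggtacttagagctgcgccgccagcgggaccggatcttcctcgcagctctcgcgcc
Rfx2: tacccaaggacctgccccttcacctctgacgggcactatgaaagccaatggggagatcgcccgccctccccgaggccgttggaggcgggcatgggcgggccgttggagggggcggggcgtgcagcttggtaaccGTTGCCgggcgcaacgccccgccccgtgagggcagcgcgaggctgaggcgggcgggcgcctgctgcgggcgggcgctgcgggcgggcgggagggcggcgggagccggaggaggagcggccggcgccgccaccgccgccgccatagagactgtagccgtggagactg
Rfx3: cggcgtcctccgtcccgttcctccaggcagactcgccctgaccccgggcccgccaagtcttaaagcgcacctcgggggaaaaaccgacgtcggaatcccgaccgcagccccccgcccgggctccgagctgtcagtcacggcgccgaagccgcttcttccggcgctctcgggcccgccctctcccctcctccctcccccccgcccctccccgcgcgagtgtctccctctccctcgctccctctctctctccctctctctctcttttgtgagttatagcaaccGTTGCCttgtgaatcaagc
Counted from the 5′ end of the window, the match began at base 172 in Deup1 (on the opposite strand), 32 in Ccno, 135 in Rfx2 and 282 in Rfx3, where it lies past the gene start. A further Deup1 start site had none. The forkhead letters GTAAACA, in 3.65% of windows, and the E2F letters TTTGGCGC (0.514%) and TTTCCCGC (1.07%) stood in 0 of the 9 genes' windows. No match overlapped another. Such a match describes the sequence and is not evidence of binding.

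Array medians lay between 490.9 and 530.5 signal units. Lung identity was plain, with Sftpc of alveolar type II cells at 97286 ± 6167 in Scap-deleted and 97440 ± 15052 in control lungs and Ager of type I cells at 79490 ± 3695 and 76695 ± 7626 (SD, n = 3 arrays per group, as for every mean below). The main Scap probe set read 1847, 3286 and 2702 in Scap-deleted lungs and 7264, 4195 and 3080 in controls. The groups overlapped, with p = 0.2 by exact permutation (two-sided), where 0.1 is the smallest that 3 against 3 arrays allow. Within each of the 3 replicate numbers, this probe set read lower in the Scap-deleted array. A dimmer Scap probe set read 221.1, 325.2 and 169.5 in Scap-deleted lungs and 587.1, 648.4 and 74 in controls. There the Scap-deleted array numbered 3 was the higher of its pair (log2 difference -0.40, SE 0.92, p = 0.8 by exact permutation). The arrays numbered 3 in both groups stood apart from the other 4 on the leading principal component (36.6% of the variance). In whole lung, more cells of a type and more transcript per cell cannot be told apart.

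Deup1 and Ccno, the genes behind the choice, stood at 187.0% and 179.7% of control. A percent of control is the ratio of geometric means, taken back from the log2 difference. Their differences between the groups are given as descriptions, with no test, as are those of the other 8 genes in the same comparison. A log2 difference is Scap-deleted minus control, and its standard error (SE) comes from limma over all probe sets.

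Deup1, the scaffold of the deuterosome, read 2016, 2390 and 1656 in Scap-deleted replicates 1 to 3, against 1240, 1096 and 897.8 in control replicates 1 to 3. Every Scap-deleted array lay above every control array, although within each group the array numbered 3 was the lowest. The log2 difference was 0.90 (SE 0.20), beside a spread within groups of 0.25 (log2 SD). It lay between 0.77 and 1.04 when any single array was left out, and was 0.91 without both arrays numbered 3.

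Ccno, a cyclin-like protein required to make many centrioles in airway cells, read 1612, 2318 and 2652 in Scap-deleted lungs, against 1040, 1009 and 1627 in controls. The lowest Scap-deleted array fell just short of the highest control array, so the groups overlapped. Here the array numbered 3 was the highest of its group on both sides, the opposite of Deup1. Compared within a number, Ccno was higher in the Scap-deleted lung of all 3 numbers, by log2 differences between 0.63 and 1.2, and Deup1 likewise by 0.70, 1.12 and 0.88. The overall log2 difference of Ccno was 0.85 (SE 0.29), and it was 0.92 without both arrays numbered 3.

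**Figure D1:**
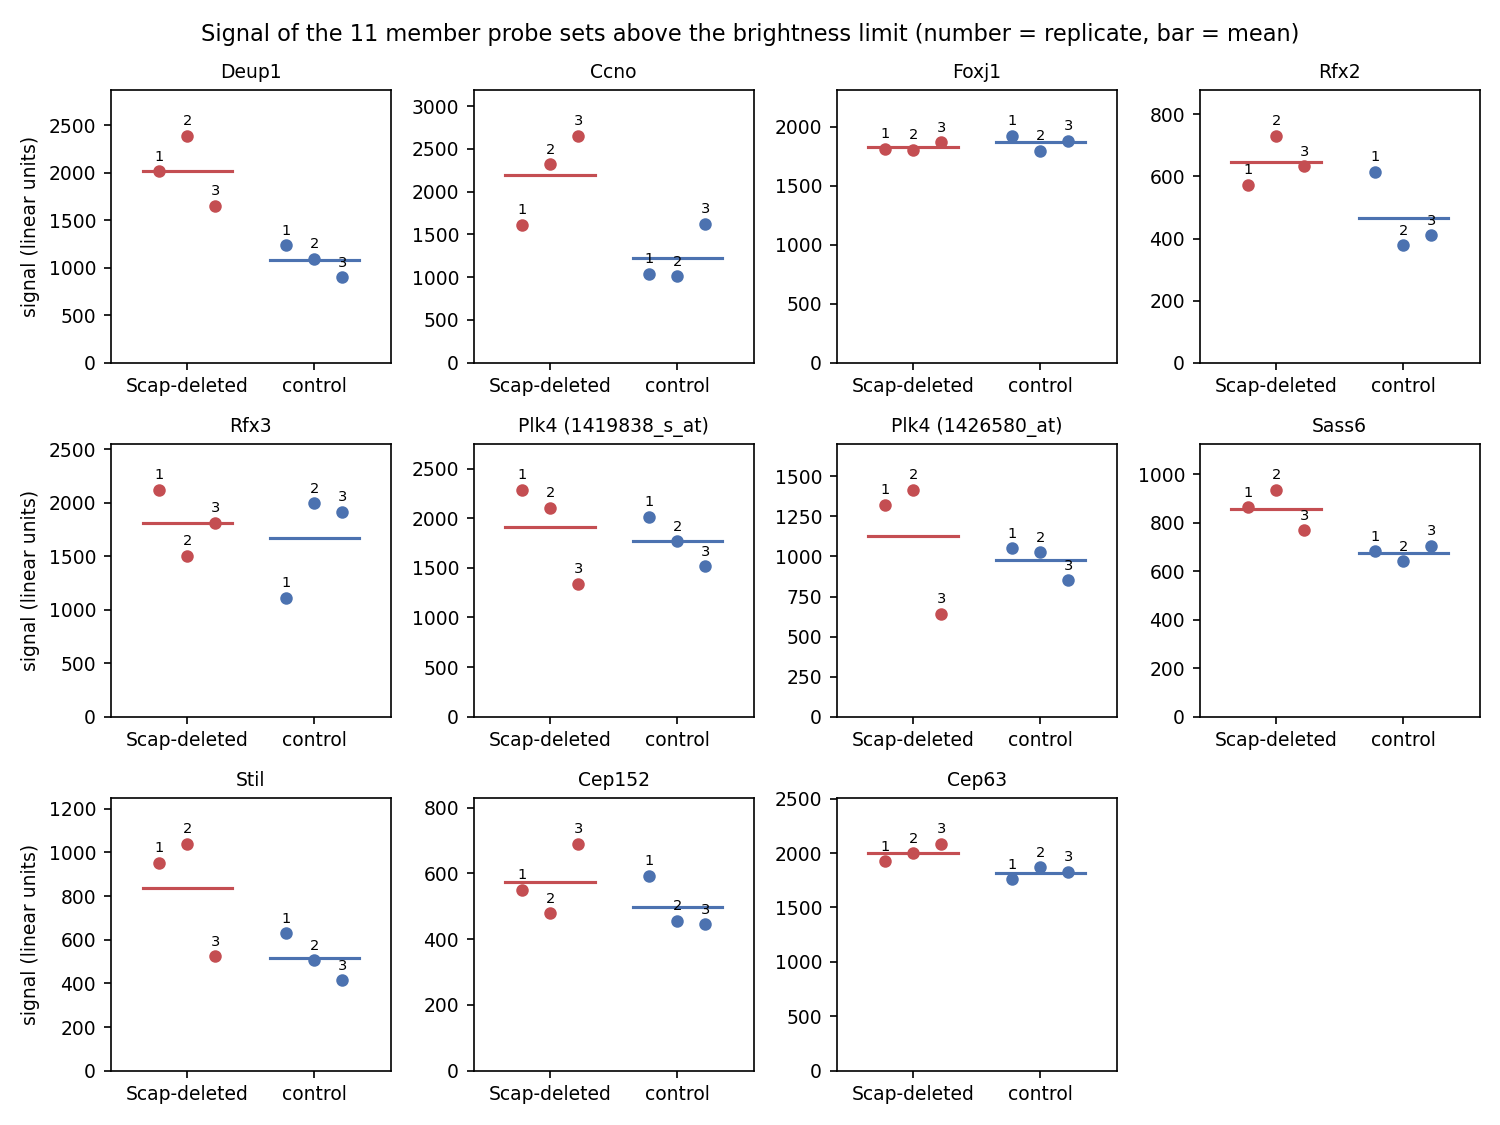
Signal on a linear scale for the 11 probe sets above the brightness limit, with the 3 Scap-deleted arrays left of the 3 control arrays, replicate numbers beside the points and bars at the group means. Deup1 separates the groups, Ccno nearly does so with its arrays numbered 3 highest, and Foxj1 sits between 1798 and 1923 on all 6 arrays.

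On the chromosome Ccno stands next to Mcidas and Cdc20b, both genes of the same differentiation programme, in the RefSeq gene order. Mcidas was not analysed here. Cdc20b, expressed in differentiating multiciliated cells, read 309.5, 300.5 and 109.2 in Scap-deleted lungs and 128.6, 156.0 and 58.8 in controls, all below the brightness limit of 497.8. Its groups overlapped, its array numbered 3 was the lowest in each group, and its log2 difference was 1.04 with an SE of 0.57. Dhx29, the neighbour on the other side, is a helicase of translation initiation and had a log2 difference of 0.04 (SE 0.23) on its brighter probe set. The Dhx29 probe set below the limit gave -0.31 (SE 0.38). Mtrex, the next gene beyond Dhx29, had a log2 difference of 0.21 (SE 0.13) on its brightest probe set. Its groups there were separated as higher, as were those of 4.35% of all probe sets. These neighbours were looked up after the Ccno values were seen.

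Foxj1, the master regulator of motile cilia, differed least. Its signal was 1814, 1806 and 1869 in Scap-deleted lungs, against 1923, 1798 and 1883 in controls. The Scap-deleted arrays lay inside the control range, with a log2 difference of -0.03 (SE 0.11) that stayed between -0.06 and -0.01 when single arrays were left out. Its log2 SD within groups was 0.04.

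Rfx2, a partner of Foxj1 in ciliary gene activation, had 4 probe sets, of which 1 passed the brightness limit. That one read 573.8, 730.8 and 632.8 in Scap-deleted lungs, against 614.7, 377.8 and 410.2 in controls. Control replicate 1 overlapped the Scap-deleted arrays, and the log2 difference of 0.49 (SE 0.23) became 0.71 without it and 0.36 without control replicate 2. A second, dimmer probe set had a log2 difference of 0.30 (SE 0.24) and read higher in all 3 same-numbered pairs. The remaining 2, averaging 57.4 and 27.8 signal units over all arrays, gave -1.22 (SE 1.05) and -0.20 (SE 0.88), and without both arrays numbered 3 they gave -0.04 and -1.08. The value of -0.20 turned positive under 4 alternatives. Their errors are too wide to give a direction.

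Rfx3, a relative with the same role, read 2118, 1502 and 1812 in Scap-deleted lungs and 1110, 1991 and 1915 in controls on its brighter probe set. Control replicate 1 stood far below the other arrays. The log2 difference of 0.15 (SE 0.28) became -0.12 without that array and 0.26 without both arrays numbered 3, so no direction can be given. Its dimmer probe set gave 0.07 (SE 0.17), which crossed 0 when control replicate 2 was left out and was 0.27 without both arrays numbered 3.

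Among the genes that start a procentriole, Stil, which binds and activates Plk4 and brings in Sass6, stood farthest from control. It read 953.3, 1039 and 523.7 in Scap-deleted lungs, against 630.9, 505.7 and 414.7 in controls. The Scap-deleted array numbered 3 fell inside the control range, while the other Scap-deleted arrays lay above it. Its log2 difference was 0.66 (SE 0.32), positive within all 3 numbers, and 0.82 without both arrays numbered 3.

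Sass6, whose protein builds the cartwheel at the core of a new centriole, read 865.2, 936.4 and 769.5 in Scap-deleted lungs, against 682.7, 641.6 and 705.2 in controls. The groups did not overlap, with a log2 difference of 0.34 (SE 0.13) between 0.27 and 0.41 when single arrays were left out. Without both arrays numbered 3 it was 0.44. A second probe set below the limit gave -0.05 with an SE of 0.64, too wide to give a direction. In that one control replicate 2 read 875.6 against 257.4 and 240.2 on the other control arrays, and without it the difference was 0.55.

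Plk4, the kinase that licenses centriole formation, hardly differed on the probe set of highest signal, which read 2287, 2108 and 1339 in Scap-deleted lungs and 2015, 1769 and 1516 in controls. The Scap-deleted arrays spanned the whole control range. Log2 differences of its 3 probe sets were 0.09 (SE 0.25), 0.13 (SE 0.34) and, for the one below the limit, 0.44 (SE 0.44). The value of 0.09 was negative without Scap-deleted replicate 1, Scap-deleted replicate 2 or control replicate 3, and without both arrays numbered 3 the 3 probe sets gave 0.22, 0.40 and 0.22.

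Cep152 and Cep63 form the ring that recruits Plk4 to an existing centriole. Cep152 read 550.9, 478.9 and 689.9 in Scap-deleted lungs and 593.6, 456.7 and 445.7 in controls, overlapping through control replicate 1. Its log2 difference was 0.20 (SE 0.20), and turned to -0.02 without both arrays numbered 3. Cep63 was among the tightest readings, at 1927, 1998 and 2084 in Scap-deleted lungs, against 1758, 1870 and 1828 in controls. Its groups were separate, but the log2 difference was only 0.14 (SE 0.11) and stayed between 0.11 and 0.17 when single arrays were left out. A dim second probe set gave 0.09 (SE 0.32), and -0.06 without both arrays numbered 3. Deup1, the Cep63 relative, read 187.0% of control where Cep63 itself read 110.2%, but Deup1 was chosen for being high.

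**Figure D2:**
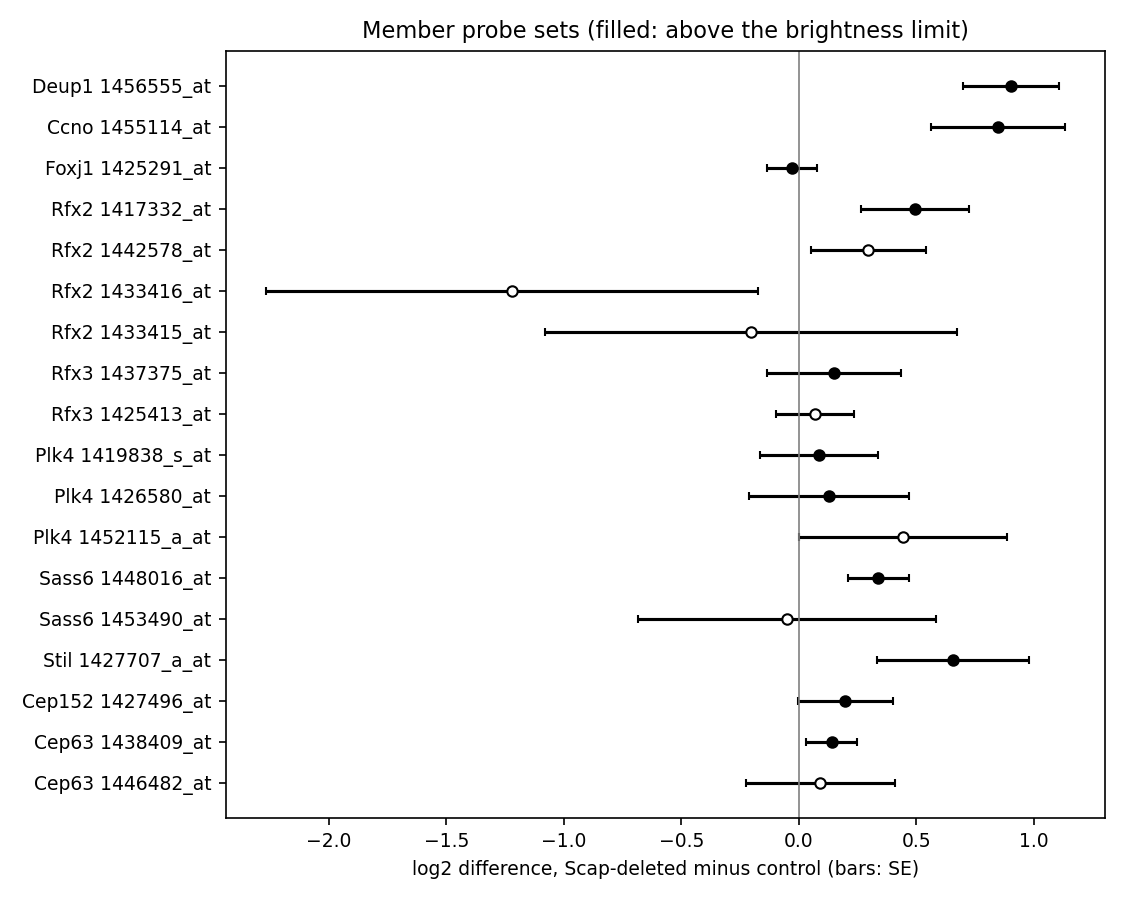
Log2 difference of each of the 18 probe sets, Scap-deleted minus control, with bars of 1 SE from limma; filled points passed the brightness limit and open points did not. Deup1 (0.90) and Ccno (0.85) lie farthest to the right, Foxj1 (-0.03) lies on the zero line, and the dimmest Rfx2 probe sets have the widest bars.

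Taking each gene by its probe set of highest signal, all 10 genes passed the brightness limit, 9 differences were positive and 1, Foxj1, negative. Groups did not overlap in 3 genes, all higher (Deup1, Sass6 and Cep63), and in 0 lower. Over all 10972 genes tested, 6.11% were separated as higher and 5.72% as lower, and over all probe sets 4.35% and 6.35%. Of the 18 probe sets 7 read higher in all 3 same-numbered pairs, beside 12.9% of all probe sets, and 0 read lower in all 3, beside 16% of all. Nothing is read from these counts, because the list was chosen on this comparison.

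The genes differed in how they varied inside a group, a feature the choice did not use. Deup1, Plk4 and Stil were lowest in the array numbered 3 of both groups, as were 15.1% of all genes tested. Ccno was highest there in both groups, as were 21.8% of genes. The log2 signal of the array numbered 3 minus the mean of the other arrays of its group was -0.93 for Stil in Scap-deleted lungs and -0.45 in controls. For Plk4 these offsets were -0.71 in Scap-deleted lungs and -0.32 in controls, and for Deup1 -0.41 and -0.38. For Ccno the array numbered 3 lay above the others, by 0.46 in Scap-deleted lungs and 0.67 in controls.

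Genes of dividing cells were offset in the same direction as Plk4 and Stil. Over 22 tested cell cycle genes the mean offset of the array numbered 3 was -0.70 in Scap-deleted lungs and -0.45 in controls, and their summed signal ranged from 43408 to 72921 and from 47301 to 60979. Mki67, the proliferation antigen, read 6683, 7076 and 3543 in Scap-deleted lungs and 6208, 6078 and 4646 in controls. Smaller downward offsets in both groups were seen for procentriole assembly genes (-0.05 in Scap-deleted lungs and -0.10 in controls). The same held for satellite and docking genes (-0.07 and -0.18) and for Notch genes (-0.05 and -0.03). Airway secretory genes were offset in the direction of Ccno, with a mean of 11 tested genes 0.43 higher in the Scap-deleted array numbered 3 and 0.71 higher in the control one. Scgb1a1, the club cell secretoglobin, read 62277, 57824 and 95318 in Scap-deleted lungs and 67478, 63116 and 100323 in controls. Other lists were offset upwards in both groups as well, alveolar type II genes by 0.37 in Scap-deleted lungs and 0.12 in controls, alveolar type I genes by 0.22 and 0.10, and nerve, mesothelium, oesophagus and muscle genes by 0.17 and 0.19. Axonemal and ciliated cell genes were offset by 0.24 in Scap-deleted lungs and by only 0.01 in controls. The other multiciliated fate regulators went opposite ways in the groups, by -0.18 in Scap-deleted lungs and by 0.03 in controls. The part of dividing, secretory or other cells in the values of Plk4, Stil and Ccno was not tested.

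**Figure D3:**
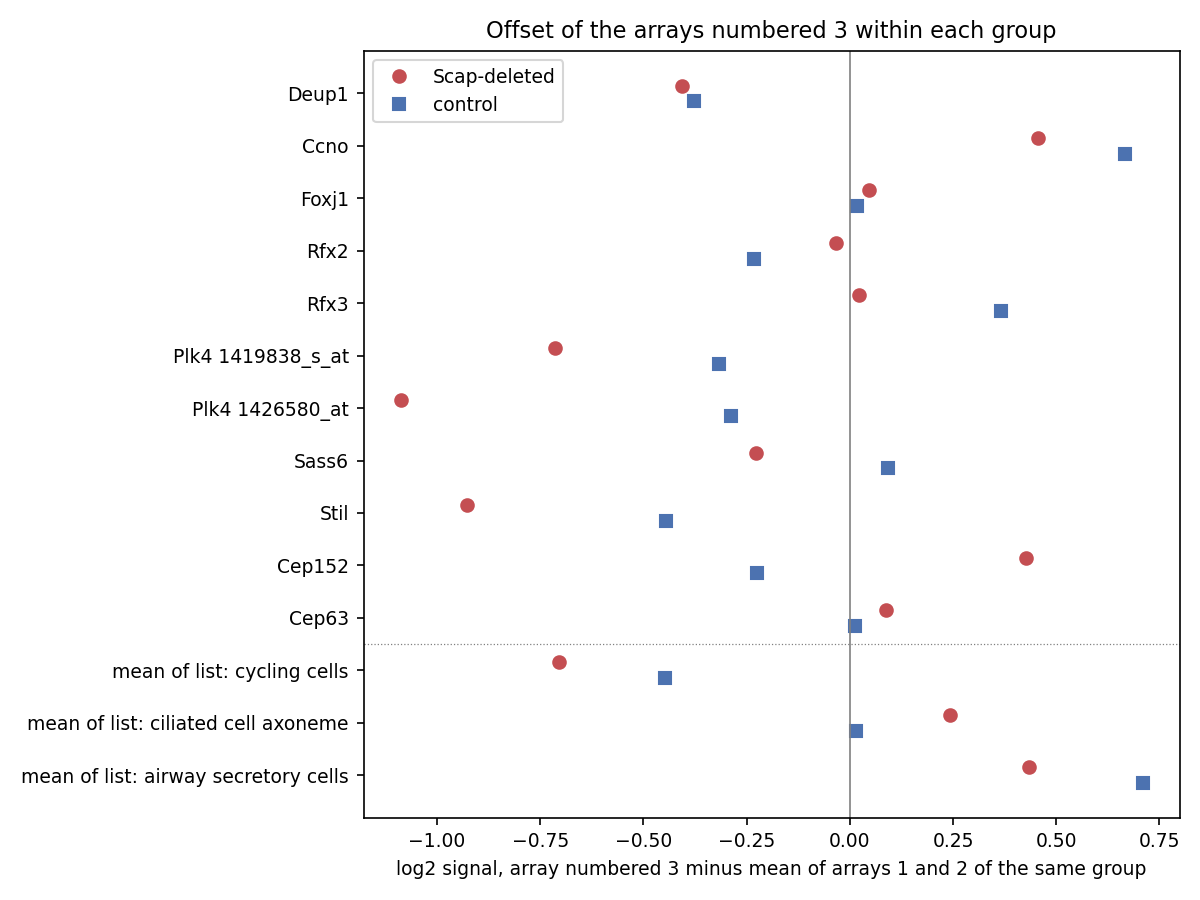
Log2 signal of the array numbered 3 minus the mean of arrays 1 and 2, with Scap-deleted (circles) above control (squares), for member probe sets above the limit and for the means of 3 marker lists below the dotted line. Deup1, Plk4 and Stil fall left of zero with the cell cycle list in both groups. Ccno falls right of it with the secretory list and the axonemal list (0.24 and 0.01), as do the alveolar lists described in the text and not drawn.

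Between the groups, no cell cycle gene passed the test. Limma called 0 of its 22 tested genes at an adjusted p of 0.05 in either direction, where over all genes it called 0.00911% higher and 0% lower. The 1 gene called, named after its value was seen, was Acox2, a peroxisomal oxidase of bile acid synthesis (log2 difference 1.21, SE 0.10, limma adjusted p = 0.0289). No gene was called higher when any single array was left out, or with the replicate block. The median log2 difference was 0.07, beside 0.01 over all genes tested, with 15 genes positive and 7 negative. It was -0.11 without Scap-deleted replicate 1, -0.07 without control replicate 3, 0.36 without Scap-deleted replicate 3 and 0.21 without both arrays numbered 3. The genes of smallest p were Cdt1, which licenses replication origins, at 122.7% of control, Mcm5 of the replicative helicase at 127.4% and the mitotic kinase Plk1 at 121.2%, with limma adjusted p of 0.853, 0.900 and 0.902. Second probe sets had smaller log2 differences, 0.10 for Cdt1 and 0.02 for Mcm5. Pcna, the sliding clamp, stood at 102.5% and Mki67 at 98.5%. No groups in this list were separated, whichever the direction, beside 6.11% higher and 5.72% lower over all genes tested.

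Other regulators of the multiciliated fate showed nothing past the threshold, with 0 of 11 tested genes called in either direction and 0 at an unadjusted p of 0.05. Their median log2 difference was 0.06, with 9 positive and 2 negative. Ccna1, a cyclin of male germ cells, read 731.1 ± 37.4 in Scap-deleted and 571.5 ± 213 in control lungs (log2 difference 0.44, SE 0.28, limma adjusted p = 0.897), with control replicate 1 lowest at 329.7. Foxn4, a forkhead factor required for multiciliated cells in frog, stood at 127.2% (adjusted p = 0.901) and the geminin gene Gmnn at 111.2% (0.941). The E2F partners Tfdp1 and Tfdp2 stood at 104.1% and 100.7%, and 3 other Tfdp2 probe sets had log2 differences between -0.21 and 0.23. Without both arrays numbered 3 the median of these regulators was 0.16. Trp73, which acts upstream of Foxj1, lay below the limit and was not tested.

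Notch genes were divided in sign, with 8 positive and 8 negative among 16 tested and 0 called. Their median log2 difference of -0.01 lay between -0.05 and 0.01 over 15 alternatives and changed sign in 3. The ligand gene Dll1 read 1104, 948.1 and 962.5 in Scap-deleted lungs, against 1346, 1223 and 1179 in controls. Its groups did not overlap, and the log2 difference was -0.32 (SE 0.11, limma adjusted p = 0.747). Dll4, mainly an endothelial ligand, stood at 87.0% of control, the target gene Hey1 at 88.5%, Notch2 at 102.1% and the Notch inhibitor Numb at 101.9%, with adjusted p from 0.876 to 0.986. A second Dll4 probe set had a log2 difference of -0.05. Separation as lower was seen in 3 of the 16 genes and as higher in 0, beside 5.72% and 6.11% of all genes.

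Procentriole assembly genes outside the 10 had a median log2 difference of 0.08, with 15 positive and 9 negative among 24 tested and 0 called. The median was 0.013 without both arrays numbered 3. At an unadjusted p of 0.05 there were 3 higher and 1 lower, beside 2.88% and 3.04% of all genes. Cep120, needed for centriole elongation, read 3303, 3534 and 3523 in Scap-deleted lungs, against 2952, 2553 and 2869 in controls (log2 difference 0.31, SE 0.10, limma adjusted p = 0.739). Cetn4, a centrin of ciliated cells, went the other way, at 1498, 1773 and 1250 against 2141, 1790 and 2427 in controls (log2 difference -0.50, SE 0.16, adjusted p = 0.739). Both genes had separate groups, the margin for Cetn4 being narrow. Ppp1r35, which takes part in centriole maturation, stood at 119.2% (adjusted p = 0.808), and the centrin Cetn3 at 98.2%. Another centrin, Cetn2, had log2 differences of -0.09 and 0.09 on 2 probe sets.

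Genes of centriolar satellites and of docking the basal body at the membrane had a median of 0.07, with 10 positive, 5 negative and 0 called among 15 tested. It was 0.0015 without both arrays numbered 3, and between 0.03 and 0.12 with single arrays left out. Cby1, which helps basal bodies dock in airway cells, read 1383, 1564 and 1590 in Scap-deleted lungs, against 1213, 1018 and 766.0 in controls. The groups were separate, and the log2 difference of 0.62 (SE 0.17) had a limma adjusted p of 0.731. Bbs4 of the ciliary BBSome stood at 76.2% of control (adjusted p = 0.739), with other probe sets at log2 differences of -0.16 and 0.17. Ssx2ip, a satellite protein, stood at 119.9% (0.849), but its other probe set differed by 0.01. Odf2 and Cep350, of the mother centriole, stood at 104.9% and 104.0%.

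Genes of the ciliary shaft, which completed multiciliated cells express, had a negative median where Deup1 and Ccno read higher, and no gene passed. Of 23 tested axonemal and ciliated cell genes 17 were negative and 6 positive, with a median log2 difference of -0.22 and 0 called. At an unadjusted p of 0.05 there were 1 higher and 4 lower, beside 2.88% and 3.04% of all genes. Dnah9, an outer arm dynein, read 955.5, 978.8 and 1121 in Scap-deleted lungs, against 1150, 1501 and 1374 in controls (log2 difference -0.39, SE 0.13, limma adjusted p = 0.739). Its groups were separate by a small margin. Cfap43 stood at 79.7% of control (adjusted p = 0.792) and Tppp3, a tubulin-binding protein, at 84.0% (0.893).

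Some axonemal genes ran against this. Lrrc23 of the radial spoke read 4880, 4801 and 5039 in Scap-deleted lungs, against 4469, 3316 and 3806 in controls (log2 difference 0.36, SE 0.12, limma adjusted p = 0.778). Dynlrb2, a dynein light chain, stood at 109.9% with separate groups. The median of -0.22 became -0.10 without Scap-deleted replicate 2, -0.28 without Scap-deleted replicate 3 and -0.27 without both arrays numbered 3. No test of the difference between the axonemal genes and Deup1 or Ccno was made, since those 2 genes were chosen for being high.

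Secretory markers of the airway were likewise negative. All 11 tested secretory genes were negative, with a median log2 difference of -0.29 and 0 called. The median was -0.17 without Scap-deleted replicate 2 and -0.42 without Scap-deleted replicate 3. Krt15, a keratin also made by basal cells, read 1045, 919.6 and 74.7 in Scap-deleted lungs and 1530, 1738 and 1589 in controls (limma adjusted p = 0.849), with separate groups. The mucin Muc5b stood at 52.6% of control, Chad at 64.5%, and the secretoglobins Scgb3a2 and Scgb1a1 at 82.0% and 93.0%, with adjusted p from 0.852 to 0.982. The summed signal of the 11 ranged from 177786 to 263958 in Scap-deleted lungs and from 209167 to 312452 in controls. Basal and neuroendocrine markers could not be tested, as 0 of the 10 with a probe set reached the limit. The part of these cells in the Deup1 and Ccno values was not tested.

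The genes whose profile over the 6 arrays came nearest to Deup1 and to Ccno were 2 sets with no gene in common. Nearness was the root mean square distance between log2 values centred on each gene's mean. For Deup1 the nearest were the transcription factor gene Atf5 (0.10), the spindle gene Psrc1 (0.18), the stress factor gene Ddit3 (0.18), Chac1 (0.18) and the checkpoint gene Clspn (0.19). Atf5 averaged 2651 signal units in Scap-deleted lungs and 1567 in controls. For Ccno they were Thbs3, a thrombospondin (0.18), Entpd6 (0.19), the cell cycle inhibitor gene Cdkn1a (0.20), Pld6 (0.22) and Sema4f (0.22). Cdkn1a averaged 4136 in Scap-deleted lungs and 2686 in controls. Since all 6 arrays carry the group difference, these distances describe the profiles and nothing more.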

How the data were processed

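Per the labels' protocols, whole-lung RNA of 6 samples was labelled with biotin and read on MOE430 V2 arrays. Intensity values were deposited by the authors as 1 table with a linear signal for 45101 probe sets per array. RMA is named in the submitters' processing notes, but the values are linear and not quantile normalized, and each array has a 2%-trimmed mean of 1500, so background correction and scaling software are not given in the sources used here. No detection calls were used, so whether a dim probe set exceeds background is unknown.

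Signals were taken to log2 without a pseudocount. Of 45037 probe sets left after 64 controls, 34945 carried 1 symbol, 932 several and 9160 none. The probe set of highest mean log2 signal stood for each gene, and genes below the median over probe sets (497.8) were set aside, leaving 10972. Groups came from the sample titles and were compared with limma 3.58.1 in R 4.3.3 without covariates (4 residual degrees of freedom, Benjamini-Hochberg over the 10972 genes). Standard errors of the 18 member probe sets come from the same model over all 45037. The fit was tested on simulated data.

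The members and all lists were chosen with earlier results of these data known. The 11 lists hold 204 memberships, 192 with a probe set and 149 tested. They cover fate regulators, Notch, procentriole assembly, satellites and docking, axoneme, cycling cells, airway secretory, basal and neuroendocrine, alveolar type II, alveolar type I, and nerve, mesothelium, oesophagus and muscle. Named from each were the 3 tested genes of smallest p and the 2 of highest signal, and for Deup1 and Ccno the 5 genes of nearest profile, passing over unnamed clones. Trp73, Cdc20b, Dhx29, Mtrex and Acox2 were named after their values were seen.

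Same-numbered samples had deviations from their group means that correlated at 0.17, 0.20 and 0.43, all above 0.1. On that basis the numbers, given by the titles, were treated as pairs in the same-numbered differences and in the replicate block. The main fit, with its standard errors and p-values, was unpaired. The sources used here do not say what the numbers mean, and Scap-deleted replicate 1 reached 0.18 with control replicate 2. Alternatives were quantile normalization, log2(signal + 100), other brightness limits, other probe set choices, a variance trend, the replicate block, and leaving out arrays.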

Additional observations from a re-analysis of the deposited data

How the results depend on the processing

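Over 10 alternatives for each member probe set, Deup1 kept a log2 difference between 0.77 and 1.04, Ccno between 0.69 and 1.07 and Stil between 0.47 and 0.97, while Foxj1 stayed between -0.06 and -0.01. Sign changes occurred for Rfx3 (both probe sets), the brighter 2 of 3 Plk4 probe sets, Cep152, and the dimmest probe sets of Rfx2, Sass6 and Cep63. The dimmer Rfx3 probe set gave 0.27 without both arrays numbered 3. Over all genes, limma called 1 higher and 0 lower. The count of higher genes was 0 with no brightness filter, with the limit at the 75th percentile, with every probe set as its own row, with a variance trend, with the replicate block, without both arrays numbered 3 and, from 0 to 0, without any single array. It was 2 without _x_at and _s_at probe sets. The count of lower genes ranged from 0 to 1 when single arrays were left out. At an unadjusted p of 0.05 the main fit had 316 higher and 334 lower genes. Without both arrays numbered 3 the median log2 difference was 0.16 for fate regulators and 0.013 for procentriole assembly. With single arrays left out it ranged from -0.28 to -0.10 for the axoneme and from -0.36 to -0.16 for alveolar type II genes. List genes called stayed at 0 under every alternative run, the replicate block included. That block leaves log2 differences as they are, and with it the 1 gene called higher was lost. It changed the unadjusted limma p-values, with 955 genes under 0.05 beside 650 in the main fit. Airway secretory genes under 0.05 went from 0 to 7 of 11 and cell cycle genes from 0 to 5 of 22. Axonemal genes stayed at 5 of 23 and alveolar type II genes at 5 of 11. The list p-values given above are from the unpaired fit. The cause of these shifts was not tested.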

Other observations

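Of 11 tested alveolar type II genes 9 had negative log2 differences, with a median log2 difference of -0.16 and 0 called by limma over all genes, and 0 higher and 5 lower at an unadjusted p of 0.05, beside 2.88% and 3.04% of all genes. Lyz2, a lysozyme, read 34436 ± 8264 in Scap-deleted lungs and 58937 ± 7611 in controls (limma adjusted p = 0.671). Lpcat1, which makes surfactant phospholipid, read 33840 ± 2546 and 45062 ± 2472 (0.671), and Sftpa1, surfactant protein A, stood at 45.5% of control (0.739). All 3 had separate groups, while Sftpc stood at 100.6%. Separation as lower was seen in 3 of the 11 genes and as higher in 0, beside 5.72% and 6.11% of all genes tested. The chemokine gene Cxcl15 had log2 differences of -0.07 and -0.38 on 2 probe sets. Alveolar type I genes had a median of 0.00, with 5 of 10 positive and 0 called. Over 15 alternatives that median lay between -0.07 and 0.04 and changed sign in 6. Clic5 stood at 84.5% and was the 1 gene of this list with separate groups, beside 5.72% of all genes tested separated as lower. Its other probe sets above the limit had log2 differences between -0.39 and -0.26. The water channel Aqp5 stood at 81.3%, Emp2 at 88.8%, Ager at 103.9% and caveolin Cav1 at 98.9%.

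Of the nerve, mesothelium, oesophagus and muscle markers 6 were tested, 0 called, with a median of 0.05. The cardiac genes Myh6, Myl7 and Actc1 stood at 119.3%, 108.0% and 105.5% of control and mesothelial Msln at 91.4%.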
